A study of Mus musculus with 99 samples.

Results

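Epithelial-to-mesenchymal transition (EMT) is the programme by which cells joined in a sheet loosen their contacts and become migratory, and 8 of its genes were followed here: the transcription factors Snai1, Snai2, Twist1, Zeb1 and Zeb2, the cadherins Cdh1 (E-cadherin) and Cdh2 (N-cadherin), and the intermediate filament gene Vim. They were taken by name from a count table of 55341 gene names, and their chromatin was read from every peak within 2.5 kb of each gene. The study was made in mouse embryonic stem cells (ESCs) and asked what the ubiquitin mark on histone H2A (H2AK119ub1) contributes to Polycomb repression. RNA was sequenced in 16 libraries, 2 per group, and chromatin immunoprecipitation followed by sequencing (ChIP-seq) gave 69 peak lists of 12 antibodies.

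The Parental line was ROSA26::creERT2 RING1A-/-; RING1B fl/fl, so that every one of its cultures, with or without treatment, lacked RING1A. Exposure to 0.5 µM 4-hydroxytamoxifen (OHT) for 72 h activates the Cre recombinase and deletes the floxed RING1B, and cells given ethanol in its place are called −OHT. RING1B WT and RING1B I53S cells were puromycin-selected clones of that line carrying a Flag-HA-tagged RING1B, either wild type or with the I53S change in the RING domain, driven by the pCAG promoter, which is active in most cell types. With OHT these clones were left with the transgene as their RING1B. The Eed fl/fl line was a separate ESC line, derived from blastocysts, in which OHT deletes EED, a core subunit of the H3K27 methyltransferase. The paper lists separate clones of it, and the labels do not say which clone each library came from. Some MTF2 and JARID2 ChIP-seq libraries were taken at 48 h of OHT, and H3K27me3 and SUZ12 were also profiled in the same 3 lines after knockout of MTF2.

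As background, Polycomb repressive complex 1 (PRC1) carries the ubiquitin ligase RING1A or RING1B and deposits H2AK119ub1, and Polycomb repressive complex 2 (PRC2) places the tri-methyl mark H3K27me3 on histone H3. Canonical PRC1 contains PCGF2 and CBX7, variant PRC1 contains PCGF6 or RYBP, SUZ12 is in every PRC2, and MTF2 and EPOP or JARID2 and AEBP2 mark its alternative forms. Both complexes occupy CpG-rich promoters of silent developmental genes in ESCs. SNAI1, SNAI2, TWIST1, ZEB1 and ZEB2 are best known as repressors of E-cadherin, and the exchange of E-cadherin for N-cadherin with a rise in vimentin is the classical readout of EMT. ESCs grow as compact colonies held together by E-cadherin, although they also express vimentin.

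Of the 8 genes 4, Snai1, Twist1, Zeb2 and Vim, had a promoter window in the RefSeq table used (GRCm38.p6), and their windows from 250 bases before to 50 after the start site are printed because they are the DNA on which the Polycomb peaks described later lie. CpG dinucleotides are in capitals. The Snai1 window is chr2:167537945-167538244 on the plus strand, Twist1 is chr12:33957421-33957720 on the plus strand, Zeb2 is chr2:45110228-45110527 on the minus strand, and Vim is chr2:13574061-13574360 on the plus strand. Zeb2 had 4 windows in the table, and the one that overlapped peaks of the most antibodies is shown.
Snai1: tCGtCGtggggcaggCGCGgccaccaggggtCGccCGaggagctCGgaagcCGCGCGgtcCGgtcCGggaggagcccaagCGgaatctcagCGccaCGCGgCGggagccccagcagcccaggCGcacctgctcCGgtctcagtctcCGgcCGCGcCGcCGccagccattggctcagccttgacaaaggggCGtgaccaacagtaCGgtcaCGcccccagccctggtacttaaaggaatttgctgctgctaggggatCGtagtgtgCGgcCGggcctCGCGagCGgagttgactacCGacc
Twist1: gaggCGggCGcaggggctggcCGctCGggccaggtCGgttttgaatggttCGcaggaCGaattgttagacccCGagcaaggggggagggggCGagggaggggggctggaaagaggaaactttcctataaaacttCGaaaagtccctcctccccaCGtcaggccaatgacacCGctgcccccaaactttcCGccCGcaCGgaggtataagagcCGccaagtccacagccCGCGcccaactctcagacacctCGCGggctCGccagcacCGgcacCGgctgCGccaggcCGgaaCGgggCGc
Zeb2: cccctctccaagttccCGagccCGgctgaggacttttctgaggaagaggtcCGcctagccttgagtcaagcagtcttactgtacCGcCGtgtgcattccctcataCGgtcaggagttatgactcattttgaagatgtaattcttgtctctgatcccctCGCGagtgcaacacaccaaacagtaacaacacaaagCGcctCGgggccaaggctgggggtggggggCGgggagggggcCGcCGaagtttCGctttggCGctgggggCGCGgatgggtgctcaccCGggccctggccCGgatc
Vim: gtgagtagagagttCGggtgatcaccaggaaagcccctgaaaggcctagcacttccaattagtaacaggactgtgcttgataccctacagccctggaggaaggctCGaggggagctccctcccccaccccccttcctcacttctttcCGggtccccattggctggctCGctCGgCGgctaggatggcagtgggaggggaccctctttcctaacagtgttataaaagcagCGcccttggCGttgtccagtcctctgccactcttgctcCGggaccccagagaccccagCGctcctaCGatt

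The Snai1 window held 34 CpGs at 70.0% GC, which 93.0% of the 32851 windows in the table did not exceed, against a median of 7 CpGs per window. Twist1 followed with 27 CpGs and 66.0% GC, Zeb2 with 19 CpGs and 60.7% GC, and Vim with 11 CpGs and 59.3% GC. At least 10 CpGs were present in 43.5% of all windows, so only Snai1, Twist1 and Zeb2 stood well into the CpG-rich part of the range (93.0%, 85.8% and 73.5% of windows at or below), while Vim stood at 60.4%. In Parental −OHT cells the Snai1 window was overlapped by peaks of 7 antibodies, that of Twist1 by 9, that of Zeb2 by 10 and that of Vim by 8. The Zeb2 window was picked out of 4 by this very count, so its number cannot be ranked against the others. The letters CACCTG, an E-box of the kind that SNAI and ZEB proteins recognise, were searched on both strands. They occurred once in the Snai1 window and in no window of Twist1, Zeb2 or Vim shown here, and 20.2% of all windows held them.

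In the mm10 build Snai1 lies at chr2:167538195-167542814 on the plus strand, Zeb2 at chr2:44983632-45117395 on the minus strand, Vim at chr2:13573927-13582826 on the plus strand, Twist1 at chr12:33957671-33959829 on the plus strand, Snai2 at chr16:14705852-14709385 on the plus strand, and Cdh1 at chr8:106603351-106670246 on the plus strand. Zeb1 and Cdh2 share a chromosome, at chr18:5591860-5775467 on the plus strand and chr18:16588877-16809246 on the minus strand. Snai1, Snai2 and Twist1 have a single annotated start site each, Cdh1 and Cdh2 have 3, Vim has 6, Zeb1 has 11 and Zeb2 has 29. Counting ignored strand, and Zeb1 overlaps exons of the antisense gene Gm10125 by up to 198 bp and Zeb2 those of the antisense Zeb2os by up to 181 bp. In the 12 libraries of the ROSA26::creERT2 lines both antisense genes had 0 to 2 counts each, and in Eed fl/fl cells Gm10125 had 15 to 45. Start sites of these and of further noncoding genes lie within 2.5 kb of Zeb1, Zeb2 and Cdh2, so a peak there may belong to either gene.

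The RNA libraries held 6957248 to 12743460 counts each. RING1B promoter peaks, present at 17.6% of protein-coding genes in Parental −OHT cells, were left at 1.36% with OHT. Eed RNA was 255 and 173 CPM (counts scaled to a common library total) in Eed fl/fl −OHT and 67.1 and 43.7 CPM with OHT. Rnf2, which encodes RING1B, was 198 and 257 CPM in Parental −OHT and 144 and 167 CPM with OHT, and counts over the whole gene check little, since they include its undeleted exons and, in the clones, any read of the transgene. The summed level of 8 ESC markers, Pou5f1, Nanog and Sox2 among them, was 5090 to 6440 CPM in Parental −OHT and 2740 to 2860 CPM with OHT, with none at 0. Marker sums of other lineages moved the opposite way in the same libraries, where 15.1% of all genes tested were called higher (thresholds as given with the first comparison): 7 primitive endoderm genes went from 30.1 to 30.3 CPM up to 58.4 to 70 CPM, with 6 of 7 called higher and Gata6, Sox7 and Foxa2 at 0 before treatment, 4 mesoderm genes from 2.97 to 3.1 up to 15.2 to 17.6 CPM with 3 of 4 called higher, 4 neural crest genes from 4.07 to 5.69 up to 27.7 to 32.9 CPM with 3 of 4 called higher, and 7 trophoblast genes from 122 to 146 up to 188 to 224 CPM with 4 of 6 tested called higher. A sum of 4 neural genes was lower with OHT, at 32.5 to 39.4 against 64.5 to 93.5 CPM, with 1 called in each direction. In bulk RNA, fewer cells of a type and less RNA per cell cannot be told apart, and the part that such lineage markers play in the changes below was not tested.

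Before treatment the 8 genes spanned a wide range of levels. In CPM per kilobase of exon, Parental −OHT cells had 90 ± 5.51 for Cdh1, 25.4 ± 2.23 for Vim, 3.87 ± 0.291 for Snai1, 1.98 ± 0.176 for Zeb1, 0.364 ± 0.244 for Cdh2, 0.132 ± 0.0727 for Snai2, 0.126 ± 0.0366 for Twist1 and 0.0144 ± 0.00279 for Zeb2 (SD, n = 2 throughout). Snai2 and Twist1 did not differ beyond their spread, and the SD of Cdh2 reached the mean of Snai2. The epithelial cadherin and vimentin were thus both abundant in these ESCs, Snai1 and Zeb1 were readily detected, and Twist1, Zeb2 and Snai2 were each read from 2 to 4 counts per library.

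**Figure D1:**
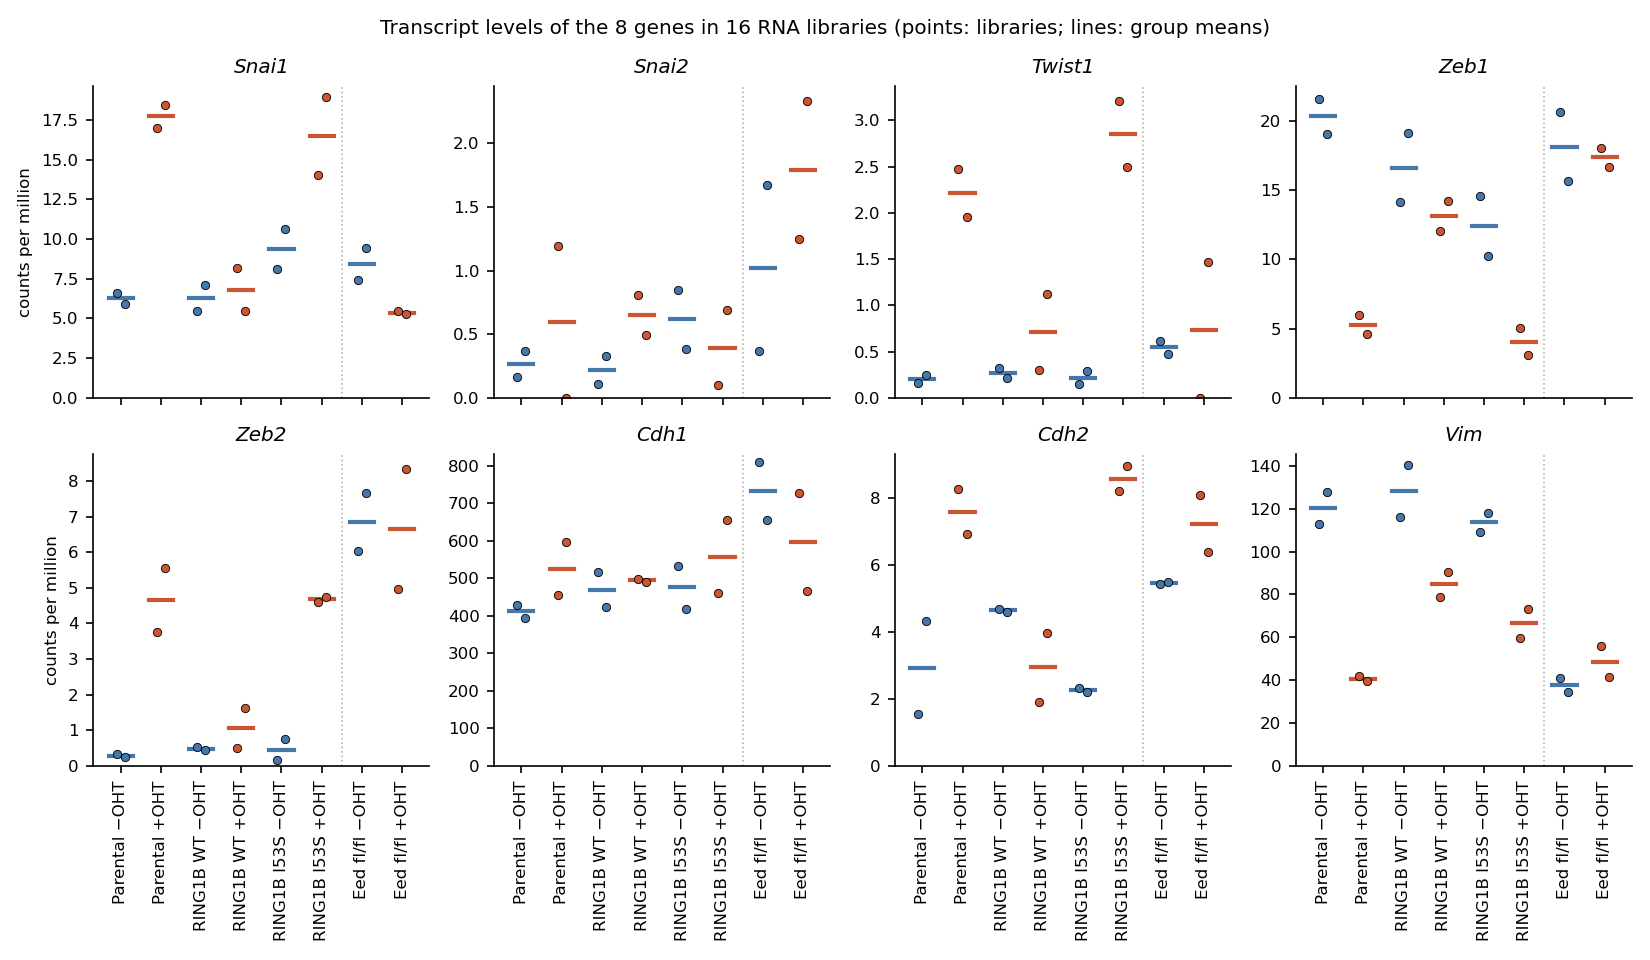
CPM, counts scaled to a common library total, of each gene (vertical axes, linear and starting at 0) in each of the 16 RNA libraries, by group on the horizontal axis, with −OHT groups in blue and +OHT groups in red, points for libraries and lines for group means. Snai1, Twist1, Zeb2 and Cdh2 stand higher and Zeb1 and Vim lower with OHT in Parental and RING1B I53S cells, whereas Cdh1 stays between 394 and 655 CPM in all 12 libraries left of the dotted line.

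Loss of RING1B was the first question: what did deleting it do to these genes in Parental cells? Snai1, Twist1, Zeb2 and Cdh2 rose, Zeb1 and Vim fell, and Cdh1 did not pass the test. The test was edgeR's quasi-likelihood test over the 18154 gene names that passed a filter on low counts, with Benjamini-Hochberg adjustment (FDR), and its p-values measure the spread between 2 cultures per group. A gene is said to have risen or fallen at an FDR under 0.05 and is said to be called where the log2 fold change was also at least 1.5 in size. Of the 8 genes 7 passed the filter. Snai2 did not, and Twist1 and Zeb2 could pass only through the libraries in which they are high. Twist1 and Zeb2 were called higher, against 15.1% of all genes tested, and Zeb1 and Vim lower, against 1.83%. At an FDR under 0.05 alone 4 were higher, against 21.9%, and 2 lower, against 12.4%. The median log2 change of the 7 was 1.42 beside 0.0269 over all genes. The 8 genes were chosen with earlier results of these data known, so such comparisons with all genes describe them and do not test them.

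Among the transcription factors, Snai1, the zinc-finger repressor of E-cadherin that starts EMT in gastrulation, had 81 and 48 counts in Parental −OHT (6.60 and 5.93 CPM) and 199 and 189 with OHT (17 and 18.4 CPM). All treated libraries were above all untreated ones. The fitted log2 fold change was 1.49 (SE 0.292, FDR 0.000569, edgeR), just short of the fold required for a call, and Snai1 was called with DESeq2 and with RLE scaling, as well as without Parental −OHT replicate 1 (1.55) or Parental +OHT replicate 1 (1.55). Twist1, a basic helix-loop-helix factor of mesoderm and cranial neural crest, had 2 and 2 counts before and 29 and 20 after. With OHT it stood at 1.36 ± 0.229 CPM per kilobase, beside 0.943 ± 0.119 for Cdh2 (SD, n = 2). Its log2 fold change was 3.41 (SE 0.774, FDR 0.002), and the plain ratio of its summed counts per total, 13, had a 95% counting interval of 4.75 to 49.5. Zeb2, a zinc-finger homeobox factor of neural crest and the nervous system, went from 4 and 2 counts to 44 and 57. Its log2 fold change of 3.93 (SE 0.692, FDR 0.000214) was the largest among the 8, with a count ratio of 17.8 (95% interval 7.91 to 49.7).

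Zeb1, the paralogue of Zeb2, went the other way. It had 265 and 154 counts before OHT (21.6 and 19.0 CPM) and 70 and 47 after (5.98 and 4.58 CPM), a 3.84-fold fall with a log2 change of -1.94 (SE 0.302, FDR 6.36e-05). The groups did not overlap. The Zeb genes, read 154 to 265 times against 2 to 4 times before OHT, were thus read 47 to 70 and 44 to 57 times after it. Per kilobase Zeb1 still stood higher with OHT, at 0.514 ± 0.0962 CPM per kilobase and Zeb2 at 0.234 ± 0.0638 (SD, n = 2). Snai2, which acts in neural crest and epidermis, was read 2 and 3 times before and 14 and 0 times after, where a count of 0 allows up to 3. It entered no test in these lines, and a change was not detectable at this depth.

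Of the structural genes, Cdh2 rose from 19 and 35 counts (1.55 and 4.33 CPM) to 97 and 71 (8.28 and 6.92 CPM). The untreated libraries differed nearly as much from each other as their higher one did from the treated pair, and the log2 change of 1.43 (SE 0.428, FDR 0.0137) was short of a call. The rise depended on single libraries in both directions. It no longer passed without Parental −OHT replicate 1 (0.78, FDR 0.219) or Parental +OHT replicate 1 (1.28, FDR 0.0898), and was called without Parental −OHT replicate 2 (2.26) or Parental +OHT replicate 2 (1.54). Vim fell from 1387 and 1035 counts (113 and 128 CPM) to 490 and 405 (41.9 and 39.5 CPM), a log2 change of -1.57 (SE 0.19, FDR 4.28e-06). Cdh1 had 430 and 394 CPM before and 456 and 596 CPM after, and although those ranges did not overlap its log2 change of 0.35 (SE 0.198, FDR 0.18) did not pass. Measured by the usual readouts, then, N-cadherin and 3 EMT factors were higher, the factor Zeb1 and vimentin were lower, and E-cadherin was not detectably changed.

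**Figure D2:**
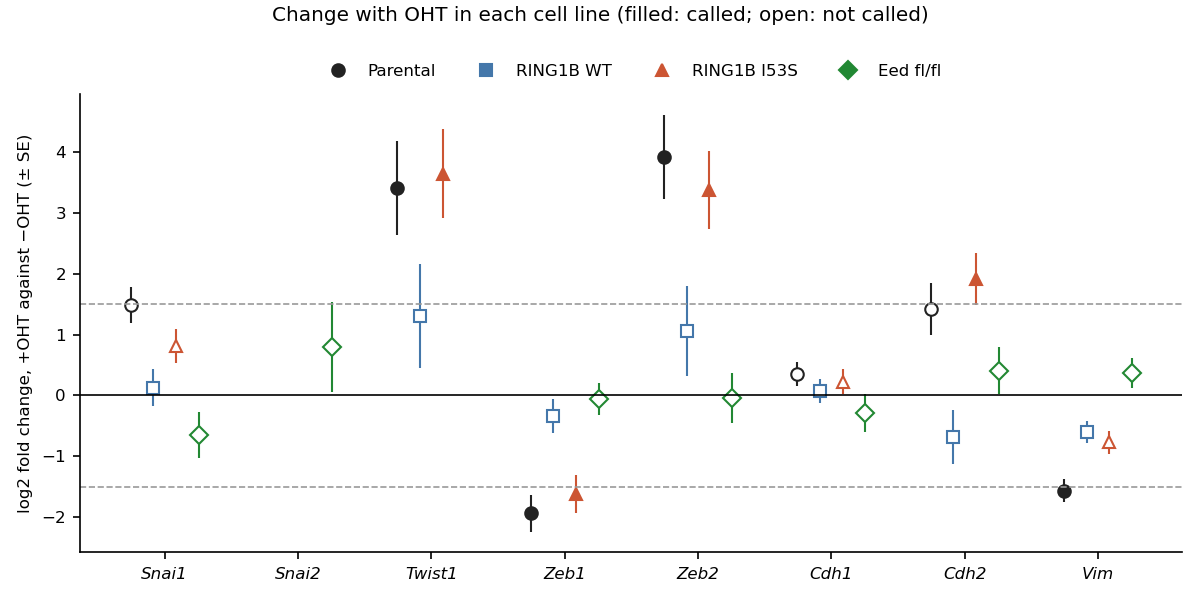
Log2 fold change of each gene with OHT (vertical axis, bars ± SE of the edgeR fit) in Parental, RING1B WT, RING1B I53S and Eed fl/fl cells, with filled symbols for called genes, open symbols for genes not called and dashed lines at the fold of 1.5 required for a call. Parental and RING1B I53S symbols lie on the same side of 0 for each tested gene, from 3.93 for Zeb2 to -1.94 for Zeb1 in Parental cells, and no RING1B WT or Eed fl/fl symbol is filled.

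Putting wild-type RING1B back was the second comparison. In RING1B WT cells none of the 7 tested genes was called with OHT by edgeR or DESeq2, and none rose or fell by edgeR. Vim alone had an unadjusted p under 0.05 (log2 -0.60, FDR 0.096, edgeR), and it passed the FDR with DESeq2 (-0.60, FDR 0.0493). Over all genes 1.34% were called higher and 0.0386% lower. Snai1 had 51 and 65 counts before and 81 and 44 after, Zeb1 132 and 174 before and 120 and 114 after, and Cdh2 44 and 42 before and 19 and 32 after. In CPM the groups overlapped for Snai1 and Zeb1 and not for Vim or Cdh2, and the latter's log2 change of -0.68 (SE 0.443, FDR 0.484) had the opposite sign to that in Parental cells. Twist1 had 3 and 2 counts before and 3 and 9 after, a count ratio of 2.63 (95% interval 0.862 to 9.52), and Zeb2 had 5 and 4 before and 5 and 13 after, a ratio of 2.19 (0.934 to 5.53).

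Compared directly with Parental cells, both with OHT, RING1B WT cells had less Snai1 (log2 -1.37, FDR 0.00303), less Zeb2 (-2.16, SE 0.588, FDR 0.0147, the only call) and less Cdh2 (-1.39, FDR 0.0294), and more Zeb1 (1.31, FDR 0.00559) and Vim (1.06, FDR 0.000791), by edgeR. Twist1 was at -1.68 with an FDR of 0.0814 and Cdh1 at -0.09. Each of the 6 genes that had moved in Parental cells thus stood on the untreated side here, 5 of them past the FDR. Those genes were picked with the same Parental +OHT libraries, so their direction here is not independent of that choice. Among all genes 7.62% were called lower in this comparison, and 12.4% were lower and 5.76% higher at an FDR under 0.05 alone. The call of Zeb2 was lost without RING1B WT +OHT replicate 1 (-1.51, FDR 0.19) or Parental +OHT replicate 2 (-1.85, FDR 0.13). Of the other 4 genes past the FDR, Vim alone stayed past it whichever library was left out. Snai1 was lost without RING1B WT +OHT replicate 2 (-1.12, FDR 0.0614) and called without RING1B WT +OHT replicate 1 (-1.69). Zeb1 was lost without Parental +OHT replicate 2 (1.13, FDR 0.0824) and called without Parental +OHT replicate 1 (1.51). Cdh2 was lost without RING1B WT +OHT replicate 1 (-0.93, FDR 0.29), Parental +OHT replicate 1 (-1.25, FDR 0.168) or Parental +OHT replicate 2 (-1.51, FDR 0.0818) and called without RING1B WT +OHT replicate 2 (-1.99).

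The difference between these OHT effects, RING1B WT minus Parental, was tested as an interaction. Zeb1 was the only gene of the 8 past the thresholds (log2 1.60, SE 0.415, FDR 0.0484, edgeR), where 0.435% of all genes were called higher. Its FDR was above 0.05 without any one of 7 libraries, namely RING1B WT −OHT replicate 1, both RING1B WT +OHT and all 4 Parental libraries (log2 1.41 to 1.81, FDR 0.0711 to 0.229). Snai1 (-1.37, FDR 0.10), Zeb2 (-2.87, FDR 0.195), Cdh2 (-2.10, FDR 0.08) and Vim (0.97, FDR 0.0613) had unadjusted p-values under 0.05 and did not pass the adjustment. Cdh2 was called without Parental −OHT replicate 2 (-2.94, FDR 0.0222), and Vim passed the FDR, at a fold too small for a call, with DESeq2 (0.95, FDR 0.0225) and in a fit of the compared groups alone (0.96, FDR 0.0275), as well as without either RING1B I53S +OHT library (FDR 0.0304 and 0.0301).

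The catalytically impaired RING1B I53S was the third comparison, and the same 6 genes rose or fell there with OHT as in Parental cells, each in the same direction. Twist1 went from 2 and 3 counts to 32 and 29 (log2 3.65, SE 0.733, FDR 0.000971, count ratio 14.7 with a 95% interval of 5.95 to 46.7). Zeb2 went from 2 and 8 counts to 46 and 55 (log2 3.38, SE 0.638, FDR 0.000566, count ratio 12.1 with an interval of 6.33 to 26.1). Cdh2 went from 30 and 23 to 82 and 104 counts, or 2.32 and 2.21 to 8.22 and 8.96 CPM (log2 1.92, SE 0.428, FDR 0.00228), and here it was called. In all 3 the treated libraries lay above the untreated ones.

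Zeb1 fell from 189 and 107 to 50 and 36 counts, or 14.6 and 10.3 to 5.01 and 3.10 CPM (log2 -1.63, SE 0.311, FDR 0.000626), a call that was lost for size without RING1B I53S −OHT replicate 1 (-1.35) or RING1B I53S +OHT replicate 2 (-1.33). Snai1 rose by a smaller amount, from 8.11 and 10.7 to 14 and 18.9 CPM (log2 0.82, FDR 0.0361). That rise did not pass without RING1B I53S −OHT replicate 1 (0.63, FDR 0.209) or replicate 2 (1.02, FDR 0.0665), without RING1B I53S +OHT replicate 2 (0.57, FDR 0.209), without either Parental +OHT library (FDR 0.0572 and 0.0587), with no filter on low counts (FDR 0.0626) or in a fit of the compared groups alone (FDR 0.0722). Vim fell by a smaller amount, from 109 and 118 to 59.8 and 73.3 CPM (log2 -0.77, FDR 0.00412). Cdh1 was 534 and 418 CPM before and 460 and 655 CPM after (log2 0.23, FDR 0.428). Counting calls by edgeR, 3 genes were higher, against 12.8% of all genes, and 1 lower, against 1.04%. At an FDR under 0.05 alone 4 were higher, against 18.4%, and 2 lower, against 8.37%, and the median of the 7 was 0.82 beside 0.0141 over all genes.

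RING1B I53S and Parental cells, both with OHT, were not told apart at any of the 8 genes: none was called by edgeR or DESeq2, where 0.0661% of all genes were called higher and 0.0936% lower. The closest was Vim, with more RNA in RING1B I53S cells (log2 0.71, SE 0.188, FDR 0.195, and the single unadjusted p under 0.05). The difference between their OHT effects passed for none of the 8, nor for any gene, and again Vim alone had an unadjusted p under 0.05 (log2 0.79, SE 0.263). A p that misses the threshold does not show that the lines behaved alike, and the standard errors of 0.263 for Vim up to 1.24 for Twist1 set what could be seen.

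Against RING1B WT cells with OHT, RING1B I53S cells with OHT had more Twist1 (log2 2.03, SE 0.648, FDR 0.0428), Zeb2 (2.17, SE 0.588, FDR 0.0187), Cdh2 (1.56, SE 0.428, FDR 0.0199) and Snai1 (1.27, SE 0.292, FDR 0.00724) and less Zeb1 (-1.70, SE 0.313, FDR 0.00157), by edgeR. All but Snai1 were called, 3 higher against 6.02% of all genes and 1 lower against 0.6%, and at an FDR under 0.05 alone 4 were higher against 9.69%. Vim (-0.35, FDR 0.229) and Cdh1 (0.17, FDR 0.604) did not pass. Some of these calls hung on single libraries. Twist1 had an FDR from 0.0502 to 0.339 without any one of 10 of the 12 libraries, the exceptions being RING1B I53S −OHT replicate 1 and RING1B WT +OHT replicate 2, and 0.104 with DESeq2. Without RING1B WT +OHT replicate 1 the log2 difference of Zeb2 was 1.52 (FDR 0.215) and that of Cdh2 1.10 (FDR 0.234), neither called, and Snai1 was called at 1.58. Without RING1B WT +OHT replicate 2 Snai1 did not pass (1.01, FDR 0.114). Without RING1B I53S +OHT replicate 1 Zeb2 had an FDR of 0.051, and without RING1B I53S +OHT replicate 2 Cdh2 had an FDR of 0.0563 and Zeb1 a log2 difference of -1.40, short of the fold.

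Without OHT the 3 lines were not separated at these genes. Neither clone had a member past the FDR against Parental cells, and the single unadjusted p under 0.05 was that of Zeb1 in RING1B I53S cells (12.4 against 20.3 CPM, log2 -0.71, FDR 0.771).

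Deletion of EED was the fourth comparison. None of the 7 genes that passed the filter in the Eed fl/fl libraries rose or fell with OHT by edgeR or DESeq2 as fitted here, and none had an unadjusted p under 0.05, in a fit where 0.00795% of 25170 genes were called higher and none lower. Eed itself was at log2 -1.95 (SE 0.315, FDR 0.0766) and so was not called either. Snai1 was 7.40 and 9.44 CPM before and 5.48 and 5.28 after (log2 -0.65, SE 0.378), Cdh2 5.43 and 5.5 before and 8.09 and 6.38 after (0.40, SE 0.385), and Vim 41.1 and 34.3 before and 55.9 and 41.5 after (0.37, SE 0.251). These 3 pairs of groups did not overlap but none passed the test, and the share of all genes without overlap was not computed. Zeb1 was 18.1 ± 3.5 CPM before and 17.4 ± 0.96 after (SD, n = 2). Twist1, with 4 and 5 counts before and 0 and 12 after, was not tested, and Snai2, with 3 and 14 counts before and 10 and 19 after, was (log2 0.79, FDR 0.865).

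The untreated Eed fl/fl line was itself different in level at some of these genes, given here side by side because the lines were fitted apart. Zeb2 stood at 6.85 ± 1.13 CPM in Eed fl/fl −OHT and 0.287 ± 0.0556 in Parental −OHT, and Vim at 37.7 ± 4.80 against 120.5 ± 10.6 CPM. For both genes the level in untreated Eed fl/fl cells was thus near that of Parental cells with OHT, which was 4.66 ± 1.27 CPM for Zeb2 and 40.7 ± 1.67 CPM for Vim. That did not hold for Zeb1, Snai1 and Twist1, and Cdh2 lay in between. In the order Eed fl/fl −OHT, Parental −OHT and Parental +OHT, Zeb1 was 18.1 ± 3.5, 20.3 ± 1.81 and 5.28 ± 0.987 CPM. Snai1 was 8.42 ± 1.44, 6.27 ± 0.471 and 17.7 ± 1.01 CPM, and Twist1 0.548 ± 0.0982, 0.205 ± 0.0596 and 2.213 ± 0.3725 CPM. Cdh2 was 5.46 ± 0.0487, 2.937 ± 1.965 and 7.60 ± 0.963 CPM (SD, n = 2 throughout). Cdh1 was 732.3 ± 110.3 CPM in Eed fl/fl −OHT and 411.7 ± 25.2 CPM in Parental −OHT. The lines differ in origin and derivation, and a line effect cannot be told apart from that of the genotype. The Eed fl/fl libraries also stood apart in breadth, with 43762 to 46757 gene names counted at least once against 23578 to 28032 in the other 12, and their 7 fibroblast markers summed to 23.2 to 36 CPM before OHT with none at 0, against 11.9 to 14 CPM in Parental −OHT. The part of either in these levels was not tested.

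Genes that act with the 8 were followed as lists. These lists were chosen with earlier results of these data known, so their shares and medians are not independent of the data. Of the other EMT transcription factors 4 of 8 tested were called higher in Parental cells with OHT and none lower, to be read against the 15.1% and 1.83% of all genes called in that comparison, as are the other lists. At an FDR under 0.05 alone 5 of the 8 were higher and 2 lower, against 21.9% and 12.4% of all genes. Sox9, a factor of neural crest and cartilage, went from 0.225 ± 0.143 to 20.9 ± 2.02 CPM (log2 6.36, FDR 6.07e-07). Snai3 went from 2.48 ± 0.513 to 18.8 ± 2.30 CPM (2.94, FDR 0.00013), and the mesenchymal homeobox gene Prrx1, with no count in either untreated library, stood at 7.36 ± 0.623 CPM with OHT. Regulators of the epithelial state did not go the opposite way as a list, with 7 of 10 higher and 1 lower at an FDR under 0.05 alone. Of 10 tested, 3 were called higher and none lower: Esrp1, a splicing factor of epithelia, from 4.98 ± 1.52 to 23.7 ± 0.929 CPM (2.27, FDR 7.17e-06), and the epithelial transcription factors Grhl1 (2.07, FDR 0.000449) and Ovol1 (2.75, FDR 0.00774).

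Other cadherins were called higher in 8 of 12 cases and lower in none. Cdh11, found in mesenchyme, went from 0.143 ± 0.0278 to 2.94 ± 0.434 CPM (log2 4.22, FDR 0.000188, edgeR), Cdh13 from 0.471 ± 0.141 to 4.38 ± 0.814 CPM (3.14, FDR 0.000207), and Cdh8 from no count to 1.85 ± 0.277 CPM. Among catenins and junction genes 7 of 25 were called higher and none lower, all of them parts of desmosomes or tight junctions: Dsp from 5.18 ± 0.187 to 40.3 ± 4.99 CPM (2.96, FDR 9.2e-08), Dsc2 (2.74, FDR 1.98e-06), Cldn7 (1.75, FDR 2.7e-05), Cldn3, Cldn4, Cldn6 and Marveld2. Mesenchymal and matrix genes were called higher in 9 of 16 cases, with Mmp9, a matrix metalloproteinase, from 0.348 ± 0.0318 to 20.4 ± 1.07 CPM (5.84, FDR 1.44e-07) and the collagens Col1a1 (2.69, FDR 2.1e-06) and Col5a1 (2.39, FDR 5.62e-06), and lower in 1, the proteoglycan gene Vcan, from 58.2 ± 4.98 to 15.9 ± 1.88 CPM (-1.87, FDR 7.65e-06). Of 13 TGF-beta ligands, receptors and SMADs, 3 were called higher, Tgfbr3 (2.11), Tgfbr2 (2.84) and Tgfb2 (2.39), and none lower (SD, n = 2 for all CPM values). At an FDR under 0.05 alone the other cadherins had 9 genes higher and 0 lower, and the catenins and junction genes 8 and 2. By the same rule the mesenchymal and matrix genes had 10 and 2, and the TGF-beta genes 3 and 1. The medians of these 6 lists were 2.08, 0.98, 2.23, 0.25, 1.70 and 0.12 in the order given, beside 0.0269 over all genes. Both epithelial and mesenchymal genes were thus among those called higher.

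The shares called higher of epithelial regulators, junction genes and TGF-beta genes in Parental cells were the nearest to the 15.1% of all genes. In RING1B I53S cells, where 12.8% of all genes were called higher, the same 6 lists had 4, 1, 7, 3, 7 and 2 genes called higher and none called lower. At an FDR under 0.05 alone they had 5, 4, 7, 4, 9 and 2 genes higher and 2, 1, 0, 1, 1 and 0 lower. In RING1B WT cells, where 1.34% of all genes were called higher, the lists had 0, 0, 1, 1, 1 and 0 called higher, namely Cdh20, Dsc2 and Mmp9. In Eed fl/fl cells none was called in any list. The summed level of 7 fibroblast markers moved with the matrix genes, from 11.9 to 14 CPM in Parental −OHT to 45.7 to 48.4 CPM with OHT, and to 39.7 to 49.9 CPM in RING1B I53S +OHT cells. In Parental cells 3 of the 7 were tested, all 3 rose and 2, the collagens Col1a1 and Col1a2 that the matrix list also holds, were called. Col3a1, Dcn, Lum and Postn were at 0 in Parental −OHT, Col3a1, Dcn and Lum in Parental +OHT, and Dcn and Lum in RING1B I53S +OHT cells. The part of such cells in the matrix genes was not tested.

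The genes whose pattern over the 6 groups was nearest to each member were found by the root mean square distance of fitted log2 differences from Parental −OHT. They were Fut7 for Zeb2 (0.10), Col4a1 for Twist1 (0.17), Zmat1 for Snai1 (0.12), Rdh10 for Cdh2 (0.16), Armcx1 for Zeb1 (0.16) and Gm40848 for Vim (0.0348). Within a distance of 0.25 there were 88 genes for Snai1 and 215 for Vim, against 3 for Twist1 and 7 each for Zeb1, Zeb2 and Cdh2. Snai1 and Vim had the smallest log2 ranges over the 6 groups, 1.49 and 1.66, against 1.92 for Cdh2 up to 3.94 for Zeb2.

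The chromatin of the 8 genes was read from peak lists called by MACS2, each against the same E14 ESC input, with a score of −log10 p of at least 10. Nearly every condition is 1 library, so presence and score are described without a test, and a score is set within its own list by the percent of peaks that do not exceed it. A promoter peak is one that overlaps by at least 1 bp the 2.5 kb to either side of an annotated start site, and the share of all protein-coding genes with such a peak is given as background. In Parental −OHT cells, 5 of the 8 genes had a RING1B promoter peak (Snai1, Twist1, Zeb2, Cdh2 and Vim), against 17.6% of genes. PCGF2 and SUZ12 were each found at all but Cdh1, against 17.1% and 28.5%. H3K27me3 was at 6, all but Cdh1 and Vim, against 26.6%, and H2AK119ub1 at 4, Snai1, Zeb2, Cdh2 and Vim, against 22.7%.

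The genes fell into 4 kinds of promoter by these peaks, and the RNA of all genes with the same peaks is given beside them. Snai1, Twist1, Zeb2 and Cdh2 had both RING1B and H3K27me3, as did 3043 tested genes, of which 51.5% were called higher in Parental cells with OHT and 0.263% lower. Snai2 and Zeb1 had H3K27me3 without RING1B, a combination of 1851 genes with 28.6% called higher and 0.702% lower. Vim had RING1B without H3K27me3, as did 350 genes with 6.86% called higher and 2.29% lower. Cdh1 had neither, as did 9825 genes with 4.63% and 1.88%. In RING1B I53S cells the shares called higher were 47.4%, 23.5%, 4.57% and 3.28% in the same order of peaks, and those called lower 0.263%, 0.216%, 0.857% and 0.936%. Of the 4 members in the first class 2, Twist1 and Zeb2, were called higher in Parental cells and 3, with Cdh2, in RING1B I53S cells. Zeb1, called lower in both lines, was 1 of 13 genes called lower in its class in Parental cells and 1 of 4 in RING1B I53S cells. Some of these placings rested on low-scoring peaks. The RING1B peak of Snai1 scored 14.3, and the best H3K27me3 promoter peaks of Zeb1 and Twist1 scored 11.1 and 19.2. With only peaks scored 20 or higher, Snai1, Zeb1 and Twist1 would each change class. The shares of genes called per class were not computed at that score.

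**Figure D3:**
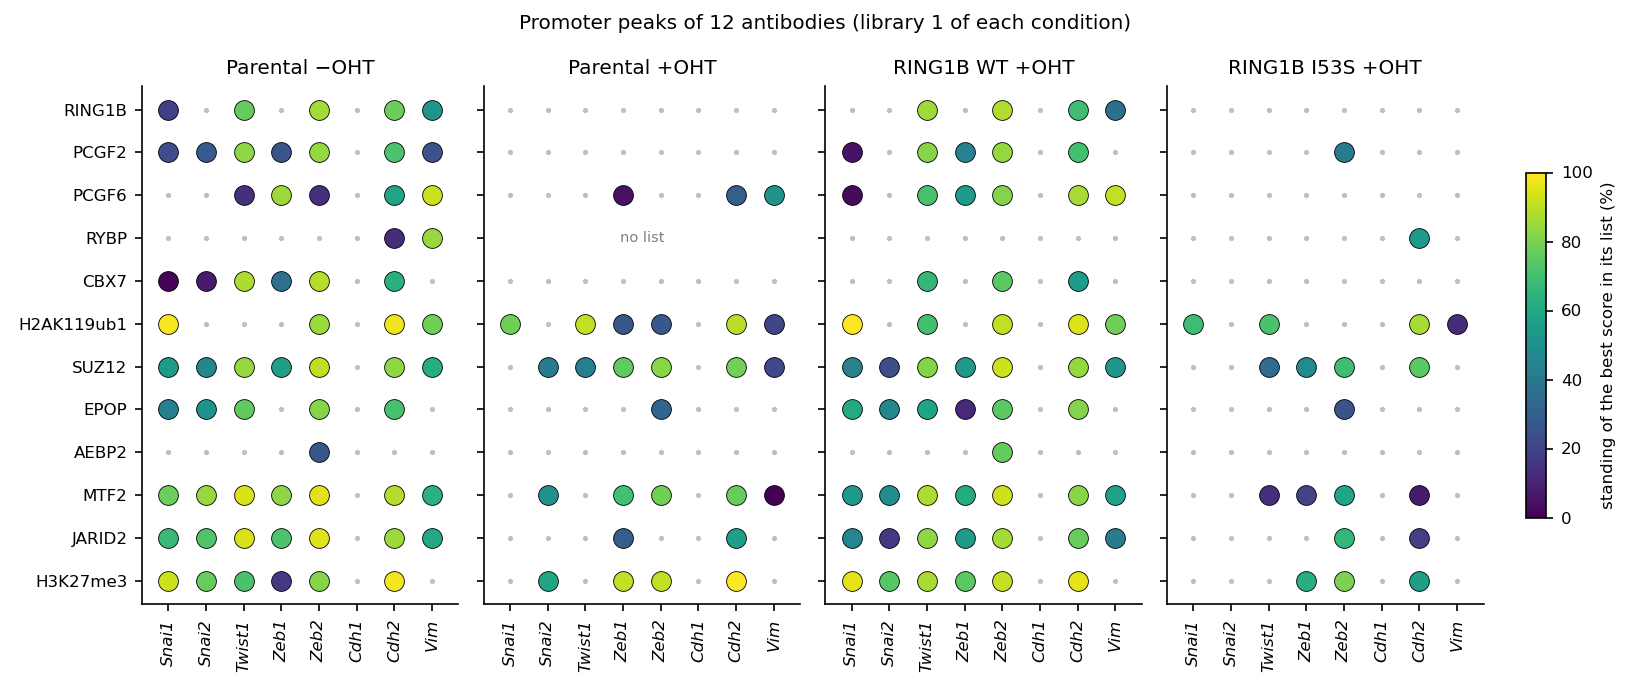
Promoter peaks of 12 antibodies (rows) at the 8 genes (columns) in Parental −OHT, Parental +OHT, RING1B WT +OHT and RING1B I53S +OHT cells, from library 1 of each condition (MTF2 and JARID2 have 2 in the last pair, and the RYBP row of Parental +OHT is marked as having no list), with a coloured disc where a peak was called, its colour giving the percent of peaks in that list with an equal or lower score, and a small dot where none was. The columns of Snai1, Twist1, Zeb1, Zeb2 and Cdh2 are filled for most antibodies in both Parental −OHT and RING1B WT +OHT cells. The RING1B and CBX7 rows are empty in Parental +OHT and RING1B I53S +OHT cells, and the Cdh1 column is empty in all 4 panels.

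Zeb2 and Twist1 had the highest scores of the 8 genes for SUZ12, PCGF2, CBX7, MTF2 and JARID2 in Parental −OHT cells, but not for RING1B, where Cdh2 exceeded Twist1, or for the histone marks. At Zeb2 in Parental −OHT cells a RING1B peak at chr2:45107855-45111373 scored 115 (86.1% of the list at or below), a SUZ12 peak at chr2:45107608-45111427 scored 321 (90.1%), and CBX7, MTF2 and JARID2 peaks 10318, 13508 and 13853 bp wide scored 366, 792 and 1010. Zeb2 was the only one of the 8 with a peak of AEBP2, in Parental −OHT and RING1B WT +OHT cells. At Twist1 the RING1B peak at chr12:33955883-33959309 scored 78.5 (76.2%), the SUZ12 peak at chr12:33955442-33959637 scored 227 (84.2%), and CBX7, MTF2 and JARID2 scored 345, 710 and 851. Twist1 had no H2AK119ub1 peak in Parental −OHT cells although RING1B was there, and had one in the 3 other conditions (scores 39.7, 20.3 and 20.2 in Parental +OHT, RING1B WT +OHT and RING1B I53S +OHT). Such scores do not measure the amount of the mark between libraries. From blots and ChIP-seq scaled to added Drosophila chromatin, the paper reports that Parental and RING1B I53S cells lose H2AK119ub1 with OHT.

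Cdh2 had RING1B at 82.1 (77.4%), SUZ12 at 218 (83.4%), H3K27me3 at 47.2 (98.2%) and H2AK119ub1 at 46.7 (97.4%), the last centred 1263 bp inside the gene from the nearest start site. At Snai1 the RING1B peak at chr2:167536580-167539385 scored 14.3 (18.2% of the list at or below) and the PCGF2 peak 18.2 (23.6%), low in both lists, but the H2AK119ub1 peak, chr2:167526544-167546898, was 20355 bp wide against a median of 1292 bp and scored 63.1, which 99.2% of that list did not exceed. In RING1B WT +OHT cells the H2AK119ub1 peak was 21893 bp wide with a score of 127 (99.8%). It was 895 bp wide with a score of 26.2 in Parental +OHT and 1121 bp wide with a score of 19.4 in RING1B I53S +OHT cells.

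Of the pair that fell, Zeb1 had PCGF2 (19.3, 25.8% of the list at or below), SUZ12 (52.8, 56.1%), H3K27me3 (11.1, 16%) and PCGF6 (37.8, 85.2%) and no RING1B or H2AK119ub1 peak in Parental −OHT cells. Vim had RING1B (36.1, 52.2%), H2AK119ub1 (21.5, 78.2%), SUZ12 (71.4, 62.3%), PCGF6 (55.1, 91.9%) and RYBP (21, 84.7%). Among these the variant PRC1 subunits had the best standings. Vim also had peaks of PCGF2, MTF2 and JARID2, which are not ranked here, and no H3K27me3 or CBX7 peak. Snai2 had H3K27me3 (21.5, 76.8%), SUZ12 (34.8, 46.8%) and MTF2 (205, 84.6%). Cdh1 had no peak of any antibody in any list within 2.5 kb, the nearest being a PCGF6 peak 12780 bp downstream in Parental +OHT cells and the next an H3K27me3 peak 89402 bp upstream in Parental −OHT cells.

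**Figure D4:**
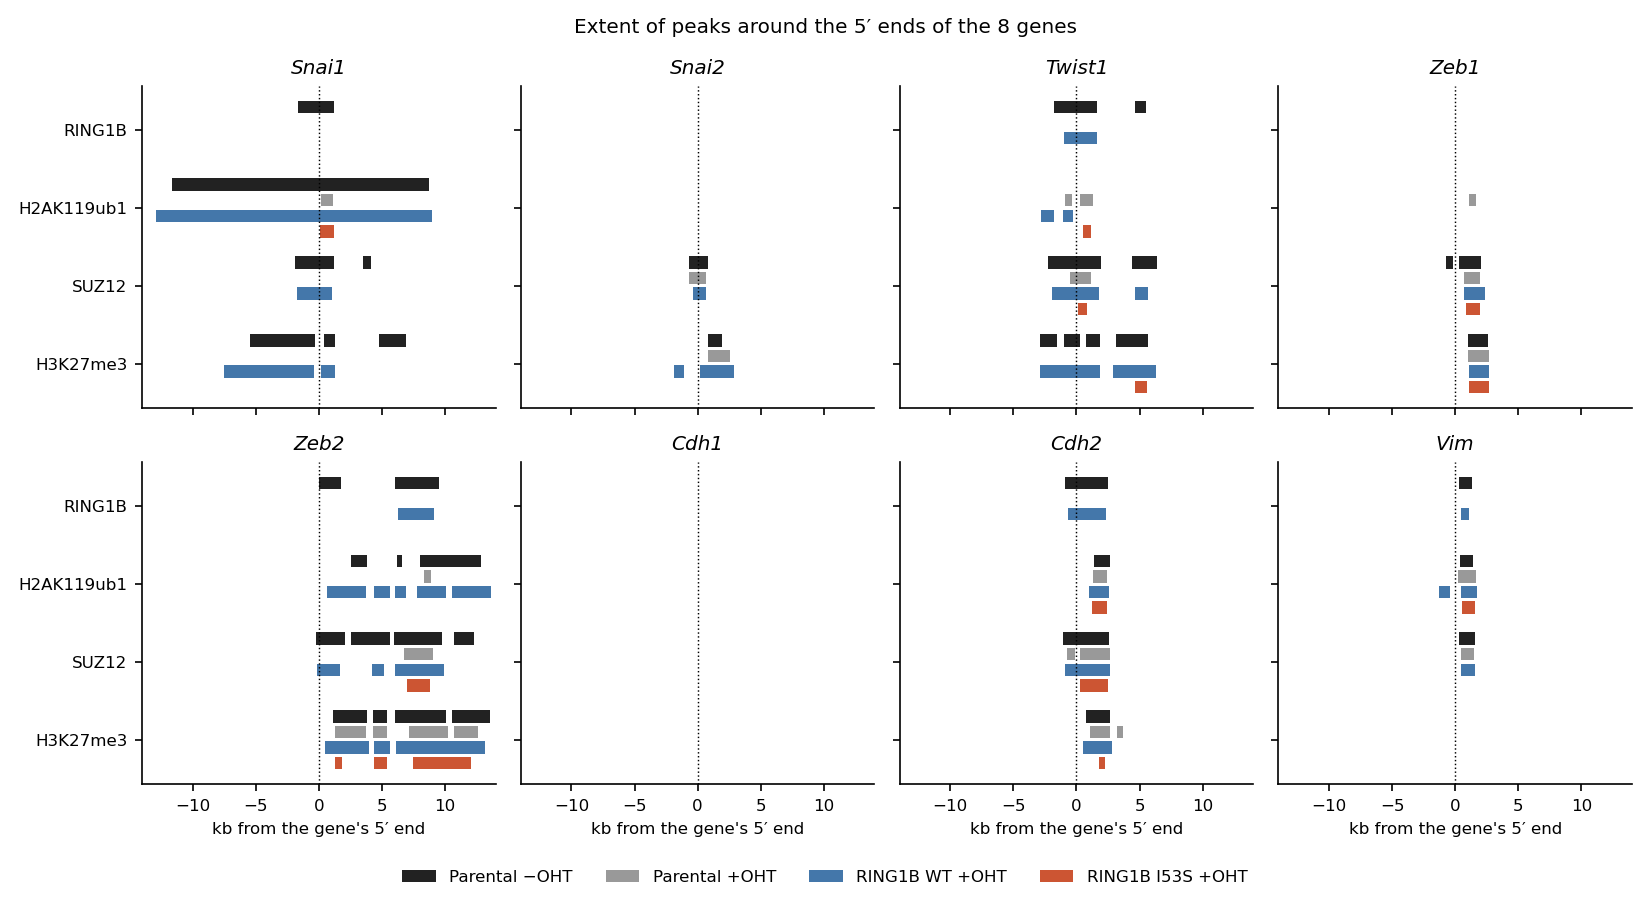
Extent of RING1B, H2AK119ub1, SUZ12 and H3K27me3 peaks within 2.5 kb of each gene, drawn to scale as distance from the gene's 5′ end in kilobases (horizontal axis, positive into the gene, shown from −14 to 14), with 4 rows per antibody coloured by condition. The H2AK119ub1 peaks of Snai1 in Parental −OHT and RING1B WT +OHT cells, 20355 and 21893 bp wide, exceed all other bars of that gene.

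With OHT in Parental cells no peak of RING1B, PCGF2 or CBX7 was left at the 8 promoters. RING1B had 0 members, against 1.36% of genes, PCGF2 had 0, against 0.273%, and CBX7 had 0 of the 6 it had before, against 0.21% of genes. PRC2 was retained at part of them: SUZ12 peaks remained at 6 members, all but Snai1 and Cdh1, against 21% of genes, with lower scores in each case (19.2 at Twist1, 50.8 at Zeb2, 45.6 at Cdh2, 41.3 at Zeb1, 18.7 at Snai2 and 13.7 at Vim). H3K27me3 remained at 4, Snai2, Zeb1, Zeb2 and Cdh2, against 21.4%, with scores above those of the −OHT list at Zeb1 (25 against 11.1), Zeb2 (25 against 24) and Cdh2 (55.8 against 47.2) and below it at Snai2 (14.2 against 21.5), while no peak was called at the promoters of Snai1 and Twist1. H2AK119ub1 peaks were listed at 6 members, all but Snai2 and Cdh1, against 20.3% of genes, from 5450 peaks where the −OHT list had 12648, and only 3 of them, at Snai1, Twist1 and Cdh2, scored 20 or more. Lists called one library at a time do not measure how much of a mark is left, and this one in particular says only where a peak was found.

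RING1B I53S cells with OHT had a similar pattern with fewer PRC2 peaks. There was no RING1B promoter peak at any member, against 2.76% of genes, and PCGF2 was found only at Zeb2 (score 14.3), against 2.31%. SUZ12 was at 4, Twist1, Zeb1, Zeb2 and Cdh2, against 12.8%, with scores of 14.4, 17.1, 23.9 and 27. H3K27me3 was at 3, Zeb1, Zeb2 and Cdh2, against 18%, with none of 20 or more. H2AK119ub1 was at 4, Snai1, Twist1, Cdh2 and Vim, against 11.2%. PCGF6, a variant subunit, was at none here and at Zeb1, Cdh2 and Vim in Parental +OHT cells, against 9.23% and 17.9% of genes.

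In RING1B WT cells with OHT most peaks were present. RING1B was at 4 members, Twist1, Zeb2, Cdh2 and Vim, against 13.3%, with scores of 81.1, 91.8, 44.8 and 18.0. PCGF2 was at 5, all but Snai2, Cdh1 and Vim, against 12.7%. H2AK119ub1 was at 5, Snai1, Twist1, Zeb2, Cdh2 and Vim, against 27.2%, H3K27me3 at the same 6 as in Parental −OHT cells, against 26.3%, and SUZ12 at the same 7, against 23.7%. Snai1 had no RING1B peak in this list, and CBX7 was at 3, Twist1, Zeb2 and Cdh2, against 9.04% of genes.

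MTF2 and JARID2 were the PRC2 subunits profiled at both times of OHT. MTF2, of PRC2.1, was at 7 members in all 3 lines without OHT, against 50.2%, 36% and 32.7% of genes in the Parental, WT and I53S lines, at 7, 7 and 6 in the same order at 48 h of OHT, against 28.5%, 30.2% and 29.5% of genes, and at 5 in Parental cells at 72 h, against 24.8%. At 72 h the pair of RING1B WT libraries had 7 and 6, against 27.7% and 24.7%, and the pair of RING1B I53S libraries had 4 and 4, against 11.3% and 25.2% in the latter. Both RING1B I53S libraries had a peak at Zeb1, Zeb2 and Cdh2, the first also at Twist1 and the other at Snai2. JARID2, of PRC2.2, was at 7, 7 and 6 members without OHT, against 31.1%, 21.3% and 19.4%, and at 5, 5 and 1 at 48 h in the same order of lines, against 10.7%, 17.9% and 3.79% of genes. At 72 h it was at 2 in Parental cells (Zeb1 and Cdh2), against 4.89%, at 7 in both RING1B WT libraries, against 18.3% and 18%, and at 2 (Zeb2 and Cdh2) and 0 in the RING1B I53S libraries, against 3.79% and 1.52%. At Zeb2 the JARID2 score was 1010 in Parental −OHT, 32.8 at 48 h and without a peak at 72 h, whereas its MTF2 score was 792, 118 and 39.9. These RING1B I53S libraries differed from each other across all genes too: of 2479 and 5524 gene promoters with MTF2, 2337 were shared (94.3% and 42.3% of each), and of 831 and 333 with JARID2, 311 (37.4% and 93.4%).

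Without MTF2, fewer of the 8 genes kept PRC2 peaks. In untreated Parental MTF2 knockout cells H3K27me3 was at the promoters of Snai1 and Zeb2 alone, against 11.2% of genes, and SUZ12 at Twist1 and Zeb2, against 10.7%. With OHT neither was at any member in Parental or RING1B I53S knockout cells, whose lists reached 0.597% and 2.42% of genes for H3K27me3 and 4.22% and 1.32% for SUZ12. In RING1B WT knockout cells with OHT H3K27me3 was at Twist1 and Zeb2, against 6.97%, and SUZ12 at Snai1, Twist1, Zeb2 and Cdh2, against 11.9%. The Zeb2 promoter was thus the one of the 8 with a peak of both in RING1B WT knockout cells and in untreated Parental knockout cells. The 4 input lists of these lines, of 9 to 19 peaks, had none at any of the 8 genes.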

How the data were processed

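RNA was profiled by SMART-seq2, which does not mark strand, in 2 cultures per group, and peaks came from ChIP-seq. Per the study's methods the authors aligned RNA reads with STAR, removed PCR duplicates with samblaster and deposited a table of raw read counts per gene name from featureCounts, unstranded, on GENCODE M21. For ChIP-seq the authors aligned to mm10 with Bowtie 1.2.2 and deposited MACS2 2.1.1 peaks whose score is −log10 of the p-value, at least 10 in every list, each called against 1 E14 input. A score depends on the depth of its library, which was not given in the sources used here. The submitters' processing notes also name STAR 2.7 and DESeq2 1.20. The authors' 7 comparison tables, of log2 fold changes and adjusted p-values, were not used.

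The 8 genes and all gene lists were chosen with earlier results of these data known. Counts were tested with edgeR 4.0.16 in R 4.3.3 (TMM scaling, filterByExpr, glmQLFit and glmQLFTest, a coefficient for each group), with 12 libraries in one fit (18154 gene names tested, biological coefficient of variation 0.181) and the 4 Eed fl/fl libraries in another (25170 tested, 0.251). P-values were adjusted by Benjamini-Hochberg over all genes tested, and a call required an FDR under 0.05 and a log2 fold change of at least 1.5. These p-values measure the spread between cultures of 1 line or clone, but the paper lists more than 1 Eed fl/fl clone. The labels do not say which clone an Eed fl/fl library came from, so clone and culture cannot be told apart there. Standard errors were taken from the fold change and its F statistic. The code was tested on simulated data. CPM divides counts by the TMM-scaled total of the tested genes in each library and was not used in tests. Counting intervals are exact binomial at 95% and cover counting error only. All 8 genes are named in every comparison, and values of list members are given for those with the lowest FDR among those called. Likeness is the root mean square difference of fitted log2 levels over the 6 groups of the 12 libraries. Promoters are 2.5 kb to either side of a GENCODE M21 start site and peaks were assigned at 1 bp of overlap. Figures were drawn with matplotlib 3.10.9. Alternatives were DESeq2 1.42.0, RLE scaling, other filters, thresholds and windows, the replicate number as a block, fits of the compared groups alone or of all 16 libraries, and leaving out each library. 1 RYBP library whose labels give no group entered no comparison.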

Additional observations from a re-analysis of the deposited data

Results flagged for a closer look

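In the main fit a single gene of the 8 had OHT effects that differed between lines by a test of the difference. For Zeb1 the effect in RING1B WT cells exceeded that in Parental cells by 1.60 on the log2 scale (FDR 0.0484, edgeR interaction), where 0.435% of all genes were called higher. The call depended on single libraries, as given with that comparison. It was also lost with at least 10 counts required in every library (1.525, FDR 0.0723, edgeR). Cdh2 was called as well with no filter on low counts (-2.12, FDR 0.0218) or with the replicate number as a block (-2.19, FDR 0.0464).

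In 7 other cases both libraries of one line lay on one side of their untreated pair and those of another line on the opposite side, and these differences were not tested. Several cases reuse the same OHT effect of Eed fl/fl cells, so they are not separate results. The share of all genes that meet the same rule was not computed, so the number of cases has no background to be read against. Cdh2 was lower with OHT in RING1B WT and higher in RING1B I53S cells, a difference of -2.60. The other 6 set Eed fl/fl cells against the ROSA26::creERT2 lines, which were fitted apart and differ in origin. Snai1 was lower with OHT in Eed fl/fl cells and higher in Parental cells (-2.14) and RING1B I53S cells (-1.47). Vim was higher with OHT in Eed fl/fl cells and lower in Parental (1.94), RING1B WT (0.97) and RING1B I53S cells (1.14), and Cdh2 was higher in Eed fl/fl and lower in RING1B WT cells (1.08). In Eed fl/fl cells none of these 3 genes passed the test of the OHT effect itself. Groups held 2 libraries, too few to test any library as an outlier.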

How the results depend on the processing

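In Parental cells the number of the 8 genes called with OHT ran from 3 to 6 over the alternatives. Requiring at least 10 counts in every library removed Twist1 and Zeb2 by construction. It left 2 genes called for OHT in RING1B I53S cells and 2 for RING1B I53S against RING1B WT cells, both times Zeb1 and Cdh2, and 0 for RING1B WT against Parental cells and for the RING1B WT minus Parental difference. RING1B WT against Parental cells gave 5 genes without a fold threshold or at a log2 fold of 1. The RING1B WT minus Parental difference gave 2, Zeb1 and Cdh2, with no filter on low counts. Leaving out 1 library gave 0 to 2, 1 to 4 and 0 to 1 genes for RING1B WT against Parental, RING1B I53S against RING1B WT and the difference of effects, in that order, and fits without a library that leave 1 in a group assume that it varies like the others.

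The labels do not say what equal replicate numbers share. The deviations of like-numbered libraries correlated at over 0.1 in 9 of 15 pairs of groups among the 12 libraries (-0.00931 to 0.425, highest between untreated groups) and at 0.502 in the 1 pair of Eed fl/fl groups, so pairing was not taken as given. With the replicate number as a block the RING1B WT minus Parental difference gave 2 genes, Zeb1 and Cdh2 (-2.19, FDR 0.0464, edgeR), and no other call of the 8 genes changed. By the FDR alone the block also brought past the threshold Vim in that difference (0.96, FDR 0.0198) and with OHT in RING1B WT cells (-0.60, FDR 0.0379), and Cdh1 with OHT in Eed fl/fl cells (-0.32, FDR 0.0325).

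Signs turned for differences that passed no test. Zeb2 in RING1B I53S against Parental cells was -0.0052 with DESeq2 and -0.0016 with no filter, and with all 16 libraries in one fit the Eed fl/fl effect was 0.0029 for Zeb1 and 0.031 for Zeb2. Leaving out 1 library, the OHT effect ran from -0.20 to 0.37 for Snai1 and -0.065 to 0.22 for Cdh1 in RING1B WT cells, from -0.064 to 0.47 for Cdh1 in RING1B I53S cells, and from -0.30 to 0.15 for Zeb1 and -0.46 to 0.24 for Zeb2 in Eed fl/fl cells. With OHT, RING1B I53S against Parental cells ran from -0.35 to 0.10 for Snai1, -0.255 to 0.31 for Zeb2 and -0.21 to 0.32 for Cdh1, and Cdh1 from -0.27 to 0.12 for RING1B WT against Parental and -0.12 to 0.41 for RING1B I53S against RING1B WT cells.

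Keeping peaks scored 20 or higher left H2AK119ub1 at 3 promoters in Parental +OHT and 2 in RING1B I53S +OHT cells, SUZ12 at 3 and 2 in the same conditions and 1 in RING1B WT MTF2 knockout +OHT cells, and H3K27me3 at 0 in RING1B I53S +OHT, Parental MTF2 knockout −OHT and RING1B WT MTF2 knockout +OHT cells. With nothing added to the gene body H3K27me3 was at 1 gene in each of the latter pair. Over the alternative windows and scores, lists of Parental −OHT and RING1B WT +OHT cells varied in part as well. H3K27me3 was at 4 to 6 promoters in both, RING1B at 4 to 5 and 3 to 4, SUZ12 at 7 and 6 to 7, and H2AK119ub1 at 4 to 5 and 5. JARID2 in RING1B I53S +OHT cells was at 0 promoters in both libraries and at 2 in the first alone. Depth limits Snai2 throughout and Twist1 and Zeb2 before treatment.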

Other observations

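A RYBP ChIP-seq library whose labels give no treatment group held 61 peaks, reached the promoters of 0.255% of protein-coding genes, and had no peak at any of the 8 genes.

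Zeb2 also had Polycomb peaks far inside the gene. In Parental −OHT cells a RING1B peak at chr2:44988727-44989596 scored 22.6, and PCGF2, CBX7, SUZ12, MTF2 and JARID2 peaks over it scored 49.3, 74.9, 66.2, 268 and 234. With OHT no peak of those antibodies was called there at 72 h in Parental or RING1B I53S cells, and in RING1B WT cells PCGF2 (19.9), CBX7 (10.3) and SUZ12 (17.9) were. Twist1 had a like set downstream of the gene in Parental −OHT cells, with RING1B at chr12:33962315-33963199 (score 13.9) under PCGF2 (16.5), CBX7 (47.3), SUZ12 (61.3), MTF2 (188) and JARID2 (174).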
